A study of Danio rerio with 40 samples.

Results

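Wild-type zebrafish larvae (Danio rerio) sequenced as the control group of a smad3 and smad6 knockout study are described here, with control pools 1 and 2 set against control pools 3 to 5. Each pool held 5 whole larvae at 5 days post fertilization, kept at 27°C in E3, the standard embryo water, to which methylene blue had been added. The 5 control pools are 5 of the 10 larval libraries analysed here and of the 40 samples of the series. All 5 carry the same label, wild type, the same age and separate biological replicate numbers, and the design text calls these fish cousins of the knockouts. The light cycle, the clutches and the time of day of collection are not given in the sources used here. The other larval group analysed, used only for values side by side, was 5 pools of 5 larvae of the same age. Its genotype was qKO, the quadruple knockout of smad3a, smad3b, smad6a and smad6b. The remaining 30 samples were not analysed here. They were adult aortas, and further larvae of the same age with smad3 or smad6 double knockouts and their own controls.

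The division into pools 1 and 2 and pools 3 to 5 was made from gene values of these same libraries, those of clock genes among them. Every difference below is therefore a description of these 5 libraries, and no test was run on it. The spread of a gene is given as the SD of log2 values within the 2 sets, pooled over both.

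In vertebrates the daily clock is a feedback loop. The activators CLOCK and BMAL (arntl in fish) bind E-box elements and drive the period and cryptochrome genes, whose proteins return to inhibit them. REV-ERB receptors (nr1d genes) repress and ROR receptors activate the arntl genes, and the PAR bZIP factors (dbp, tef, hlf) and their antagonist nfil3 carry the rhythm to D-box genes. In zebrafish most tissues hold such a clock and take light directly, and several cryptochrome, period and DNA repair genes are induced by light, so that whole larvae read as one rhythmic sample when they share a light cycle.

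Libraries of pools 1 and 2 held 16062147 and 28819083 counts, against 54145698, 48556835 and 110409906 counts in pools 3 to 5, so depth did not overlap between the sets. Levels are given as CPM (read counts relative to the library total, scaled by TMM). Before the TMM scaling, 3 counts stood for 0.187 CPM in the smallest library and for 0.0272 CPM in the largest control library. Of 32520 genes, 20214 averaged at least 1 CPM over the 5 control pools. The label whole larva could be checked against 24 defining tissue markers, of which 23 averaged at least 1 CPM. The exception was he1.1, a hatching gland enzyme, with 0 and 0.0676 CPM in pools 1 and 2, against 0.0826, 0.304 and 0.107 CPM in pools 3 to 5. The share of counts from mitochondrial genes was 3.84% and 4.22% in pools 1 and 2, against 4.88%, 4.68% and 4.92% in pools 3 to 5.

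Few genes differed by as much as 2-fold between the sets. A gene was counted when pools 1 and 2 did not overlap with pools 3 to 5 and the means of log2(CPM + 0.5) differed by at least 1. By this rule 170 genes (0.841%) were higher in pools 1 and 2, and 16 genes (0.0792%) were lower, together 0.92% of the genes. Without the 2-fold limit, 4792 genes (23.7%) lay wholly higher in pools 1 and 2, and 6891 genes (34.1%) wholly lower. A positive difference was found for 42.6% of genes and a negative one for 57.4%. The median log2 difference over all genes was -0.06, with 5% of genes below -0.45 and 5% above 0.58, and the median SD within the sets was 0.11. The percentages describe how far the 2 sets stood apart, and nothing is read from them, because the sets were chosen on such values. Of the 186 genes, 18 had a mean under 1 CPM in one of the sets and passed the filter through the other.

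Pairs of pools within a set were closer than pairs across the sets. The sets were chosen on gene values of these libraries, so this order came with the choice and nothing is read from it. Between pools 1 and 2, 46 genes differed by 2-fold or more, and between pools 3 and 4, 3 and 5, and 4 and 5 the numbers were 26, 13 and 12. Between a pool of the first set and one of the second the numbers ran between 204 (pools 1 and 4) and 373 (pools 2 and 3). The pair of the shallowest libraries thus had more such genes than any pair of pools 3 to 5, and fewer than every pair across the sets. By the median absolute log2 difference the order within the sets was another. It was 0.118 for pools 1 and 2, against 0.143 for pools 3 and 4, 0.113 for pools 3 and 5 and 0.097 for pools 4 and 5. Across the sets it ran from 0.199 (pools 2 and 4) to 0.254 (pools 1 and 3).

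Level and direction went together. With the genes ordered by mean CPM into 5 classes of equal size, the median log2 difference was 0.04 in the lowest class and -0.11 in the highest. Of the 170 genes higher in pools 1 and 2, 67 were in the lowest class and 8 in the highest. At the 2-fold limit itself, tcf3a (log2 difference 1.00005) and clocka (1.00) were just inside and lin28b (0.9996) and pkd1a (0.996) just outside.

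**Figure D1:**
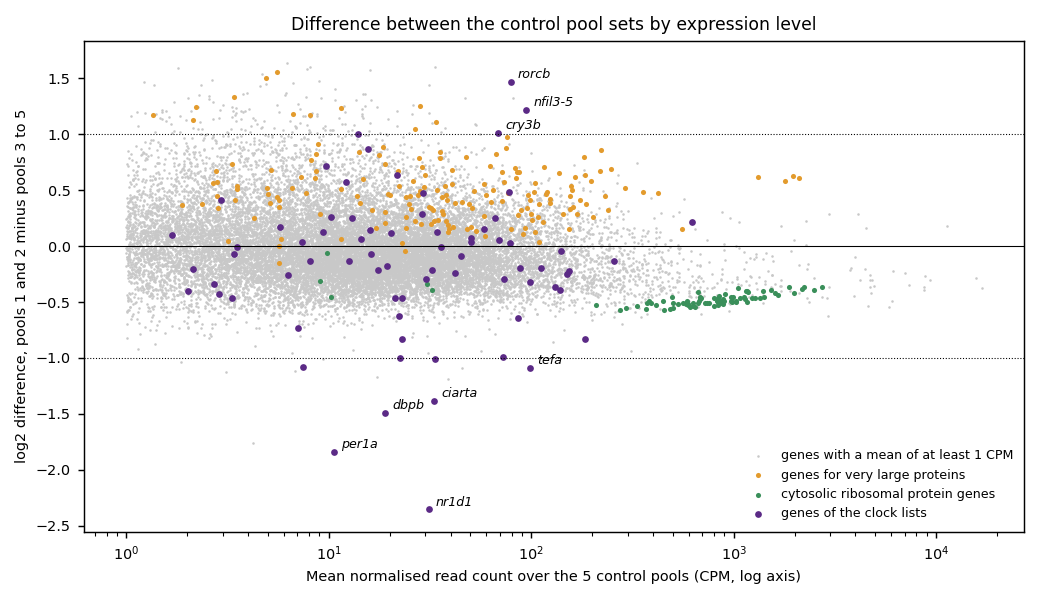
Each point is a gene, placed by its mean CPM over the 5 control pools (log axis) and its log2 difference, pools 1 and 2 minus pools 3 to 5. The dotted lines mark 2-fold. Clock genes (purple) reach down to -2.35 (nr1d1) and up to 1.47 (rorcb), while most ribosomal protein genes (green) lie near -0.49 and genes for very large proteins (orange) mostly above 0.

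Clock genes held the 4 largest negative differences among genes of at least 5 CPM, and 6 of the 10 largest. The 7 clock lists had 73 different genes at a mean of 1 CPM or more. Of these, 17 lay wholly higher in pools 1 and 2, 36 wholly lower and 20 overlapped. Over all genes 23.7% were wholly higher and 34.1% wholly lower, so the share of clock genes wholly higher was near that of all genes. The 2-fold rule was met by 4 higher genes (5.48%) and 8 lower genes (11.0%), beside 0.841% and 0.0792% of all genes. The calls nearest the limit depended on the scaling. Of the 8 lower genes, dbpa and cry-dash missed 2-fold under control-only TMM, DESeq2 size factors and upper-quartile scaling, and tefa and cry5 as well under library totals, which kept 4 of the 8. Without pool 2, 2 of the 4 higher genes and 5 of the 8 lower genes were left, and without pool 5, 2 and 7. The clock was part of what divided the pools, so these shares support nothing by themselves.

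Of the 5 REV-ERB (nr1d) genes, 3 were lower in pools 1 and 2. nr1d1 (ENSDARG00000033160), the fish REV-ERB alpha, had 8.82 and 8.41 CPM in pools 1 and 2, against 42.5, 49.0 and 47.1 CPM in pools 3 to 5. The 2 sets were far apart and each was tight: the pools 3 to 5 mean was 5.36 times that of pools 1 and 2 (log2 difference -2.35, SD 0.09). nr1d2b, a REV-ERB beta gene, had 126 and 126 CPM in pools 1 and 2, against 211, 236 and 227 CPM in pools 3 to 5 (log2 difference -0.83, SD 0.07). Its paralogue nr1d2a had 65.6 and 62.3 CPM in pools 1 and 2, against 99.7, 96.9 and 104 CPM in pools 3 to 5 (log2 difference -0.64, SD 0.05). All 3 were thus lower in both of pools 1 and 2 than in any other control pool. nr1d4b lay the other way, with 3.41 and 3.65 CPM in pools 1 and 2, against 2.02, 3.08 and 2.56 CPM in pools 3 to 5, and nr1d4a overlapped.

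ROR receptors, which activate through the elements that REV-ERB proteins occupy, were higher or overlapping. rorcb (ENSDARG00000017780), a ROR gamma gene, had 117 and 141 CPM in pools 1 and 2, against 42.0, 50.4 and 46.3 CPM in pools 3 to 5 (log2 difference 1.47, SD 0.15). Its paralogue rorca had 85.6 and 102 CPM in pools 1 and 2, against 64.9, 71.2 and 64.9 CPM in pools 3 to 5 (log2 difference 0.48, SD 0.12). roraa differed by 0.25 without overlap, and rorab and rorb overlapped.

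The activators were higher in pools 1 and 2, with a list median of 0.68 against -0.06 for all genes. Of 6 members, 5 (83.3%) lay wholly higher, beside 23.7% of all genes. clocka (ENSDARG00000011703) had 16.9 and 23.5 CPM in pools 1 and 2, against 9.27, 10.9 and 9.01 CPM in pools 3 to 5 (log2 difference 1.002, SD 0.22). npas2, a CLOCK paralogue, had 20.2 and 23.4 CPM in pools 1 and 2, against 12.1, 11.3 and 11.6 CPM in pools 3 to 5 (log2 difference 0.87, SD 0.09). Pool 2 was the highest of all 5 pools for both. Among the BMAL genes, arntl2 had 11.9 and 13.8 CPM in pools 1 and 2, against 8.73, 7.12 and 7.07 CPM in pools 3 to 5 (log2 difference 0.72, SD 0.16). arntl1b had 26.9 and 28.9 CPM in pools 1 and 2, against 16.6, 19.5 and 17.4 CPM in pools 3 to 5 (log2 difference 0.63, SD 0.10). clockb differed by 0.15 with adjoining values in pools 1 and 4, and arntl1a overlapped.

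Period genes were lower, by amounts that differed widely between paralogues. per1a (ENSDARG00000056885) had 4.44 and 3.31 CPM in pools 1 and 2, against 16.5, 15.0 and 13.8 CPM in pools 3 to 5 (log2 difference -1.84, SD 0.18). per1b had 49.6 and 42.0 CPM in pools 1 and 2, against 88.1, 92.8 and 92.6 CPM in pools 3 to 5 (log2 difference -0.99, SD 0.10), just short of 2-fold. The other period genes were close to equal, with log2 differences of -0.25 for per3 and -0.19 for per2, the light-inducible member, and without overlap. For per3 the gap was narrow, as pool 2 had 137 CPM and pool 5 had 141 CPM.

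Cryptochromes lay on both sides. cry3b had 96.2 and 101 CPM in pools 1 and 2, against 48.6, 51.2 and 46.2 CPM in pools 3 to 5 (log2 difference 1.01, SD 0.07). cry3a and cry4 were also wholly higher, by 0.21 and 0.28 on the log2 scale. In contrast cry5, the light-repair enzyme also called 6-4 photolyase, had 4.75 and 3.89 CPM in pools 1 and 2, against 9.29, 9.77 and 9.81 CPM in pools 3 to 5 (log2 difference -1.08, SD 0.11). cry-dash, another member of the photolyase family, had 14.5 and 13.1 CPM in pools 1 and 2, against 29.9, 26.8 and 28.0 CPM in pools 3 to 5 (log2 difference -1.004, SD 0.09). The cryptochrome genes cry1a, cry1b and cry2 were wholly lower with log2 differences of -0.36, -0.46 and -0.46. In all, 9 of the 12 period and cryptochrome genes (75%) were wholly lower and 3 (25%) wholly higher, with a median of -0.41. Over all genes the shares were 34.1% and 23.7%.

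Of the output factors, the dbp and tef activators were lower, and 2 of their nfil3 antagonists higher. dbpb (ENSDARG00000057652) had 9.49 and 8.21 CPM in pools 1 and 2, against 24.7, 26.8 and 25.8 CPM in pools 3 to 5 (log2 difference -1.49, SD 0.09). dbpa had 21.1 and 20.4 CPM in pools 1 and 2, against 40.6, 43.1 and 42.8 CPM in pools 3 to 5 (log2 difference -1.01, SD 0.04). tefa had 59.9 and 58.0 CPM in pools 1 and 2, against 118, 127 and 133 CPM in pools 3 to 5 (log2 difference -1.09, SD 0.07). Both of pools 1 and 2 lay under every pool of the other set for all 3 genes. tefb was wholly lower by a smaller step (-0.29), hlfb wholly higher (0.26), and hlfa overlapped. nfil3-5 (ENSDARG00000094965), a repressor of the nfil3 family, had 136 and 152 CPM in pools 1 and 2, against 54.2, 67.9 and 62.7 CPM in pools 3 to 5 (log2 difference 1.22, SD 0.15). nfil3-6 had 15.4 and 15.0 CPM in pools 1 and 2, against 9.16, 11.5 and 9.68 CPM in pools 3 to 5 (log2 difference 0.57, SD 0.14), and nfil3 overlapped.

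The list of repressors that act at the E-box and modifiers of the clock proteins was mostly lower. Of 13 genes, 9 (69.2%) were wholly lower and 2 (15.4%) wholly higher, with a median of -0.22. Among the 9 was dhrs9, a dehydrogenase gene that belongs to neither class, and its difference of -0.22 was the list median itself. Over all genes the shares were 34.1% and 23.7%. ciarta (ENSDARG00000058094), whose mammalian counterpart CIART (CHRONO) represses CLOCK and BMAL, had 15.9 and 17.5 CPM in pools 1 and 2, against 42.7, 44.8 and 45.4 CPM in pools 3 to 5 (log2 difference -1.38, SD 0.07). ciartb had 5.41 and 4.43 CPM in pools 1 and 2, against 8.48, 8.28 and 8.63 CPM in pools 3 to 5 (log2 difference -0.73, SD 0.11). bhlhe41, a DEC repressor, had 16.9 and 16.6 CPM in pools 1 and 2, against 25.6, 26.2 and 26.5 CPM in pools 3 to 5 (log2 difference -0.62, SD 0.02). Its relative bhlhe40 differed by only -0.13. The casein kinases csnk1db and csnk1da were wholly lower by 0.39 and 0.23 in size, and fbxl3a, which targets cryptochromes for breakdown, was wholly higher by 0.48. timeless and csnk1e overlapped.

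Genes of melatonin synthesis and of the pineal gland differed little. None of 13 was wholly higher and 8 (61.5%) were wholly lower, beside 34.1% of all genes. The median was -0.24, and none reached 2-fold. aanat2, the pineal enzyme whose transcript cycles daily in zebrafish, had 3.65 and 3.38 CPM in pools 1 and 2, against 3.08, 3.84 and 3.73 CPM in pools 3 to 5, and the sets overlapped. tph1a, an enzyme of serotonin synthesis, had the largest difference, with 2.92 and 2.33 CPM in pools 1 and 2, against 3.74, 4.04 and 3.65 CPM in pools 3 to 5 (log2 difference -0.47, SD 0.12). Of 12 light-induced and DNA repair genes, 5 (41.7%) were wholly lower, beside 34.1% of all genes, the 2 photolyase genes cry5 and cry-dash among them. Both are also counted above among the period and cryptochrome genes, so the share of 41.7% rests partly on genes already given. The rest of the 5 were ddb2, mpg (-0.21) and tdg.1 (-0.29). ddb2, a DNA damage binding protein, had 16.3 and 14.7 CPM in pools 1 and 2, against 25.8, 29.0 and 29.1 CPM in pools 3 to 5 (log2 difference -0.83, SD 0.10). The other 7, among them xpc, xpa, neil1, ercc1 and lonrf1, overlapped.

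**Figure D2:**
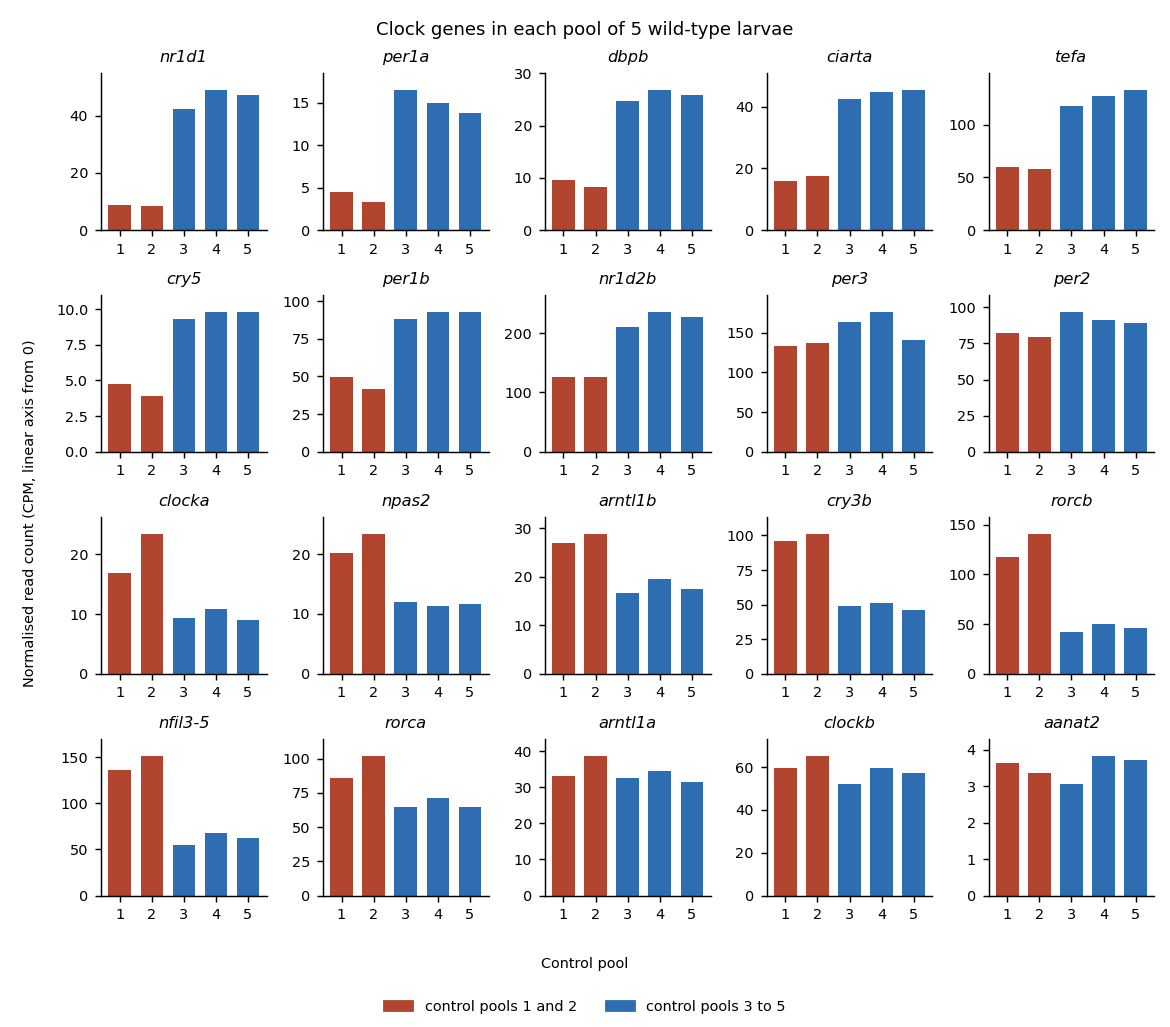
Bars give the CPM of 20 clock genes in each control pool (linear axes from 0), with pools 1 and 2 in red and pools 3 to 5 in blue. The first 10 panels, nr1d1 to per2, stand lower in both of pools 1 and 2, and the panels clocka to rorca stand higher, while arntl1a and aanat2 overlap.

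Between the same-numbered knockout pools the clock genes mostly stood the other way. The labels do not pair control and knockout pools of the same number, and the knockout division itself separates clock gene levels. Of the 36 clock genes wholly lower in control pools 1 and 2, 25 were wholly higher in qKO pools 1 and 2, 4 wholly lower and 7 overlapping. Of the 17 wholly higher in control pools 1 and 2, 8 were wholly lower in qKO pools 1 and 2, 3 wholly higher and 6 overlapping. The 7 on the same side in both were nfil3-6, nr1d4b and usp2b (higher) and crx, bsx, asmt2 and tdg.1 (lower). nr1d1 had 331 and 349 CPM in qKO pools 1 and 2, against 1.79, 1.58 and 2.59 CPM in qKO pools 3 to 5. All 5 control pools lay between these levels for nr1d1, at 8.41 to 49.0 CPM. Of the 16 genes lower in control pools 1 and 2, 14 were wholly higher in qKO pools 1 and 2 than in qKO pools 3 to 5, 2 overlapped and none was wholly lower. Of the 170 higher genes, 46 were wholly lower in qKO pools 1 and 2, 14 wholly higher and 110 overlapped. Over all genes, 22.4% were wholly lower and 20.4% wholly higher in qKO pools 1 and 2.

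Immediate early genes, which cells switch on within minutes of a stimulus, were higher in pools 1 and 2. Of 35 members 22 (62.9%) were wholly higher and 1 wholly lower, with a median of 0.28, beside 23.7% and 34.1% of all genes. fosab, the c-Fos gene, had 44.96 and 56.8 CPM in pools 1 and 2, against 15.4, 20.6 and 19.4 CPM in pools 3 to 5 (log2 difference 1.44, SD 0.22). socs3a, a feedback inhibitor of cytokine signalling, had 26.3 and 33.0 CPM in pools 1 and 2, against 13.6, 13.1 and 12.69 CPM in pools 3 to 5 (log2 difference 1.14, SD 0.14). npas4a, a transcription factor induced by activity in neurons, had 50.1 and 58.9 CPM in pools 1 and 2, against 22.0, 30.6 and 25.5 CPM in pools 3 to 5 (log2 difference 1.06, SD 0.21). These 3 passed the 2-fold rule. ier2a, btg2, klf2a and dusp1, chosen after their values were seen, were wholly higher by 0.92, 0.89, 0.84 and 0.71. egr1 was higher by 0.45, while jun and nr4a1 overlapped, so the group did not move as one.

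Chaperones went the other way: 31 of 41 heat shock genes (75.6%) were wholly lower and 2 wholly higher, with a median of -0.32. The shares among all genes were 34.1% wholly lower and 23.7% wholly higher. hsf2, a heat shock transcription factor, had 20.6 and 23.2 CPM in pools 1 and 2, against 48.4, 52.8 and 50.1 CPM in pools 3 to 5 (log2 difference -1.19, SD 0.09). It was the only one of these genes past 2-fold. hsp90aa1.1, the cytosolic chaperone of muscle, had 91.4 and 79.9 CPM in pools 1 and 2, against 175, 131 and 163 CPM in pools 3 to 5 (log2 difference -0.86, SD 0.19). hsf1, the main stress-responsive factor in vertebrates, was wholly higher by 0.30. The inducible hsp70.3 was also wholly higher, by a narrow gap. It had 8.03 and 7.70 CPM in pools 1 and 2, against 7.14, 5.99 and 6.92 CPM in pools 3 to 5. Endoplasmic reticulum stress genes and antioxidant genes had medians of -0.23 and -0.27, and none of either list was wholly higher, beside 23.7% of all genes.

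The largest positive differences were mostly in genes of no clock, tissue, metabolic, growth or stress list, rorcb and fosab excepted. nav1b, a neuron navigator of the microtubule ends, had 57.1 and 55.4 CPM in pools 1 and 2, against 18.7, 18.8 and 17.0 CPM in pools 3 to 5 (log2 difference 1.61, SD 0.06). ago3a, an Argonaute gene of small RNA silencing, had 9.92 and 11.7 CPM in pools 1 and 2, against 4.35, 2.61 and 2.66 CPM in pools 3 to 5 (log2 difference 1.64, SD 0.31). grin2db, an NMDA receptor subunit, had 10.3 and 11.8 CPM in pools 1 and 2, against 4.31, 4.02 and 2.87 CPM in pools 3 to 5 (log2 difference 1.46, SD 0.24). daam2, a formin of the Wnt pathway, and sbno2a, a Strawberry notch homologue, were higher by 1.47 and 1.59. csmd3a, a member of the very large protein list described further on, encodes a CUB and Sushi domain protein and appeared under 2 identifiers, higher by 1.56 and 1.18. The unnamed locus CR926130.2 was higher by 1.58 but with an SD of 0.99, and the clone-named gene si:ch211-219a15.4 averaged 3.19 times the mean of pools 3 to 5, with an SD of 0.48 on the log2 scale. Among the 10 largest negative differences at a mean of 5 CPM or more, those outside the clock and chaperone lists were the zinc finger gene znf395b, with 28.5 and 25.6 CPM in pools 1 and 2, against 55.2, 62.7 and 56.4 CPM in pools 3 to 5, and si:ch211-132b12.7 and si:ch211-199o1.2, with differences of -1.17 and -1.11. The rest of the 16 lower genes, named after their values were seen, were si:dkey-18a10.3 (-1.76), zgc:174917 (-1.13), si:dkeyp-57d7.4 (-1.01) and cipca. The difference of zgc:174917 rested largely on pool 4, at 9.06 CPM, and its SD was 0.95. Its level in pool 3, 1.67 CPM, was close to the 1.58 CPM of pool 1. cipca, whose mammalian counterpart CIPC inhibits CLOCK, had 3.22 and 3.11 CPM in pools 1 and 2, against 6.58, 7.43 and 6.56 CPM in pools 3 to 5.

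Tissue lists were compared next by the median of their members and by counts, which stand beside the 23.7% of all genes wholly higher and 34.1% wholly lower. Whole larvae hold all tissues, so fewer cells of a type and less RNA per cell cannot be told apart. Of 51 lists, 39 had a median below that of all genes. With library totals in place of TMM every difference shifted upwards, the median of all genes by 0.14, so smaller negative differences carry no direction of their own. The medians of the light-induced, exocrine pancreas, enterocyte, endothelial, smooth muscle, ionocyte, fatty acid synthesis and mitosis lists turned positive under that scaling. None of the lists changed side relative to all genes, but a scaling shifts all genes of a library nearly alike, so this could hardly come out otherwise. Among tissues, the 2 lists of the eye had the lowest medians. In the lens, 39 of 46 crystallin genes (84.8%) were wholly lower and none wholly higher, with a median of -0.45. crygm2d21, a gamma crystallin, had 155 and 146 CPM in pools 1 and 2, against 238, 227 and 217 CPM in pools 3 to 5 (log2 difference -0.59, SD 0.06). None of the crystallin genes reached 2-fold, and all but cryabb had a negative difference.

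Photoreceptor genes were wholly lower in 38 of 51 cases (74.5%) and wholly higher in 2, with a median of -0.37. The widest steps were in cone arrestins, which switch off the light response. arr3a had 199.8 and 202 CPM in pools 1 and 2, against 391, 388 and 375 CPM in pools 3 to 5 (log2 difference -0.93, SD 0.03). arr3b had 46.4 and 42.0 CPM in pools 1 and 2, against 72.6, 74.0 and 75.8 CPM in pools 3 to 5 (log2 difference -0.74, SD 0.06). Both were chosen after their values were seen, as were the next genes. sagb, a rod-type arrestin gene, and rbp3, which carries retinoids between cells, were lower by 0.70 and 0.66 in size. opn1sw1 and rho, the ultraviolet cone and rod opsins, differed by -0.45 and -0.47. The red opsin opn1lw1 stood on the other side, with 10.8 and 9.87 CPM in pools 1 and 2, against 9.31, 7.28 and 6.79 CPM in pools 3 to 5.

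Liver genes were wholly lower in 27 of 35 cases (77.1%) and wholly higher in 1, with a median of -0.30. fabp10a, the liver fatty acid binding protein, had 225 and 276 CPM in pools 1 and 2, against 387, 418 and 331 CPM in pools 3 to 5 (log2 difference -0.59, SD 0.18). ttr, the thyroid hormone carrier transthyretin, had 27.2 and 28.6 CPM in pools 1 and 2, against 43.8, 45.6 and 37.1 CPM in pools 3 to 5 (log2 difference -0.58, SD 0.13). The exception was f5, coagulation factor V, a large protein, with 24.8 and 28.1 CPM in pools 1 and 2, against 19.9, 21.4 and 23.7 CPM in pools 3 to 5. The complement genes c3a.1 and c3a.3 overlapped with positive differences of 0.17 and 0.34. Of 34 enterocyte genes, 16 (47.1%) were wholly lower and 7 (20.6%) wholly higher, not far from the shares over all genes. The large apolipoprotein B gene apobb.1 had 2366 and 2962 CPM in pools 1 and 2, against 1663, 1715 and 1824 CPM in pools 3 to 5 (log2 difference 0.61, SD 0.14), while the small apolipoprotein gene apoa1b had 3376 and 3854 CPM in pools 1 and 2, against 5993, 4852 and 4913 CPM in pools 3 to 5 (log2 difference -0.54, SD 0.16).

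The exocrine pancreas did not follow the sets. All 23 enzyme and marker genes overlapped between the sets, with a median of -0.13. Relative to all genes the median was -0.08, 0.086 without pool 1 and 0.033 without pool 3. The trypsinogen gene prss1 had 1157 and 1533 CPM in pools 1 and 2, against 1797, 1572 and 1325 CPM in pools 3 to 5, with pool 1 lowest and pool 3 highest. cpa1, carboxypeptidase A, had 48.8 and 56.6 CPM in pools 1 and 2, against 58.4, 51.9 and 43.8 CPM in pools 3 to 5. Pools differed here within each set: the mean of the list on a log2 scale, relative to the mean of the 5 pools, was -0.26 and 0.09 in pools 1 and 2, against 0.24, 0.08 and -0.16 in pools 3 to 5.

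Of 52 skeletal muscle genes, 22 (42.3%) were wholly lower and 14 (26.9%) wholly higher, near the shares over all genes, with a median of -0.18. ttn.1, titin, the giant spring of the sarcomere, had 2645 and 2363 CPM in pools 1 and 2, against 1503, 1648 and 1717 CPM in pools 3 to 5 (log2 difference 0.63, SD 0.10). ryr1b, the calcium release channel of fast muscle, had 344 and 300.2 CPM in pools 1 and 2, against 199, 183 and 217 CPM in pools 3 to 5 (log2 difference 0.69, SD 0.13). neb, nebulin, which lines the thin filament, was also wholly higher (0.61). Against these, pvalb4, the small calcium buffer parvalbumin, had 479.7 and 504 CPM in pools 1 and 2, against 724, 643 and 649 CPM in pools 3 to 5 (log2 difference -0.45, SD 0.08). mylpfa, a myosin light chain, was wholly lower as well (-0.35).

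In the heart list 6 of 17 genes (35.3%) were wholly higher and 4 (23.5%) wholly lower, with a median of 0.04. ryr2b, a gene of the cardiac calcium release channel family, had 8.82 and 7.87 CPM in pools 1 and 2, against 2.79, 2.72 and 2.34 CPM in pools 3 to 5 (log2 difference 1.51, SD 0.11). myh6, the atrial myosin heavy chain, had 4.68 and 6.15 CPM in pools 1 and 2, against 1.88, 2.45 and 2.00 CPM in pools 3 to 5 (log2 difference 1.18, SD 0.20). The cardiac light chain gene myl7 overlapped, with 30.3 and 26.0 CPM in pools 1 and 2, against 33.8, 28.6 and 33.5 CPM in pools 3 to 5. nppa, a natriuretic peptide gene, was wholly lower by 0.26 in size.

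Among red blood cell genes 12 of 28 (42.9%) were wholly higher and 6 (21.4%) wholly lower, with a median of 0.04. epb41b, of the membrane skeleton, had 12.6 and 14.0 CPM in pools 1 and 2, against 3.96, 6.19 and 7.20 CPM in pools 3 to 5 (log2 difference 1.17, SD 0.34). hbbe1.2, a beta globin gene, had 71.6 and 83.0 CPM in pools 1 and 2, against 31.5, 40.5 and 36.0 CPM in pools 3 to 5 (log2 difference 1.09, SD 0.17). hbbe1.1, a near-identical globin copy, went the other way by -0.73, so the division of reads between the copies is uncertain. The alpha globin gene hbae3 overlapped, with 269 and 307 CPM in pools 1 and 2, against 311, 289 and 307 CPM in pools 3 to 5. sptb, the large spectrin of the red cell membrane, was wholly higher by 0.66, and alas2, the first enzyme of heme synthesis in red cells, by 0.49.

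Nervous system lists differed among themselves. Neuronal genes had a median of 0.02, with 8 of 37 (21.6%) wholly higher and 8 wholly lower. dlg4a, a scaffold of the synapse, had 17.7 and 21.4 CPM in pools 1 and 2, against 10.4, 12.6 and 8.96 CPM in pools 3 to 5 (log2 difference 0.85, SD 0.22), while sypb, synaptophysin of the synaptic vesicle, had 132 and 138 CPM in pools 1 and 2, against 172, 183 and 179.6 CPM in pools 3 to 5 (log2 difference -0.40, SD 0.04). Myelin and glial genes were wholly lower in 18 of 24 cases and wholly higher in 1, with a median of -0.25. slc1a2a, a glutamate transporter of glia, had 17.7 and 20.8 CPM in pools 1 and 2, against 29.7, 31.1 and 29.8 CPM in pools 3 to 5 (log2 difference -0.64, SD 0.10). Neural progenitor genes were wholly lower in 21 of 33 cases, with a median of -0.20.

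Cartilage was the tissue list with the highest median (0.14), with 9 of 26 genes (34.6%) wholly higher and 3 (11.5%) wholly lower. The mean of the list relative to the 5 pools overlapped between the sets. It was 0.15 and -0.006 in pools 1 and 2, against 0.022, -0.16 and -0.008 in pools 3 to 5. Relative to all genes the median was 0.19, and 0.073 without pool 1. acanb, an aggrecan core protein gene, had 39.6 and 37.9 CPM in pools 1 and 2, against 24.7, 22.3 and 24.4 CPM in pools 3 to 5 (log2 difference 0.69, SD 0.07). The small matrix gene ucmaa was wholly lower by 0.43 in size. Bone genes had a median of -0.19. Skin keratins, ionocyte genes, smooth muscle genes and melanophore genes had medians of -0.16, -0.14, -0.14 and -0.17. Endothelial genes, with a median of -0.05, lay at that of all genes.

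Smaller lists can be given by their range. Of 6 pituitary genes, 5 were wholly lower, pomca (a melanocortin precursor) by 0.57 in size, and crhr1, a receptor for corticotropin-releasing hormone, was wholly higher by 0.80. Endocrine pancreas genes had a median of -0.23. Neutrophil and macrophage genes had a median of -0.20, with lect2l at -0.93 and 4 of 35 wholly higher. Iridophore and xanthophore genes also had a median of -0.20. gch2, the first enzyme of pteridine pigment synthesis, had 17.6 and 20.8 CPM in pools 1 and 2, against 42.6, 27.4 and 45.8 CPM in pools 3 to 5 (log2 difference -0.96, SD 0.34). Of 5 hatching gland genes at this level, 4 were wholly lower. Interferon genes, 16 at this level, had a median of 0.03.

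**Figure D3:**
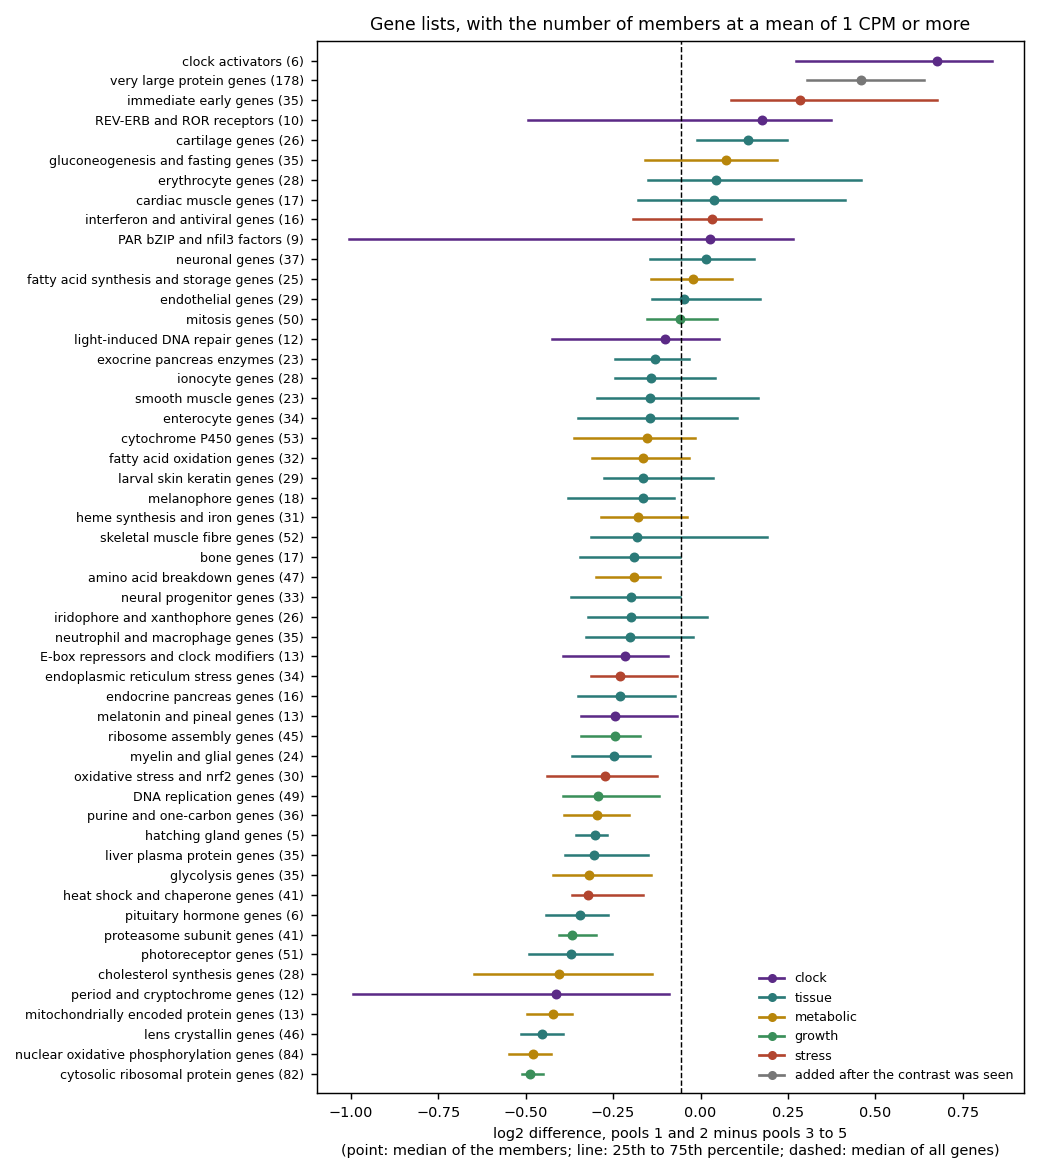
Points give the median log2 difference of each gene list, pools 1 and 2 minus pools 3 to 5, lines the 25th to 75th percentile of its members, and the dashed line the median of all genes (-0.06). Clock activators (0.68) and immediate early genes (0.28) stand on the right, ribosomal protein (-0.49), respiratory chain (-0.48) and lens crystallin genes (-0.45) on the left, and 39 of 51 lists left of the dashed line.

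Respiratory chain genes were lower. The counts of this and the other metabolic lists stand beside 34.1% of all genes wholly lower and 23.7% wholly higher. Of 84 nuclear genes of oxidative phosphorylation, 81 (96.4%) were wholly lower and none wholly higher, with a median of -0.48. ndufa6, a subunit of complex I, had 56.2 and 60.5 CPM in pools 1 and 2, against 103, 82.7 and 90.2 CPM in pools 3 to 5 (log2 difference -0.65, SD 0.14). sdha, the large subunit of complex II, differed less, with 245 and 245 CPM in pools 1 and 2, against 310.0, 266 and 288 CPM in pools 3 to 5. The mitochondrial genome's own protein genes were wholly lower in 11 of 13 cases, with a median of -0.42. mt-nd3, of complex I, had 228 and 296 CPM in pools 1 and 2, against 439.7, 375 and 401 CPM in pools 3 to 5 (log2 difference -0.64, SD 0.18), while mt-nd5 and mt-nd6 overlapped.

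Glycolysis genes were lower, with 26 of 35 (74.3%) wholly lower, 3 wholly higher and a median of -0.32. Among all genes 34.1% were wholly lower and 23.7% wholly higher. gck, glucokinase, the glucose-sensing first step in liver, had 18.3 and 16.9 CPM in pools 1 and 2, against 34.3, 28.0 and 32.0 CPM in pools 3 to 5 (log2 difference -0.81, SD 0.13). pgam2, the muscle phosphoglycerate mutase, had 114 and 103 CPM in pools 1 and 2, against 169, 140.2 and 171 CPM in pools 3 to 5 (log2 difference -0.56, SD 0.14). pfkla, a liver phosphofructokinase subunit, was wholly higher by 0.44. Gluconeogenesis and fasting genes showed no common side, with 14 of 35 (40.0%) wholly higher, 9 (25.7%) wholly lower and a median of 0.07. ppargc1a, a coactivator of mitochondrial and fasting genes, had 25.1 and 23.5 CPM in pools 1 and 2, against 15.0, 15.6 and 16.1 CPM in pools 3 to 5 (log2 difference 0.63, SD 0.06). pck1, the rate-limiting enzyme of gluconeogenesis, overlapped, with 309 and 265 CPM in pools 1 and 2, against 312, 233 and 265 CPM in pools 3 to 5, and fbp1b was wholly lower by 0.43 in size.

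Cholesterol synthesis was lower, with 21 of 28 genes wholly lower, 1 wholly higher and a median of -0.40. The shares among all genes were 34.1% wholly lower and 23.7% wholly higher. For this list the pools also differed within each set. Relative to all genes the list median was -0.35, and -0.22 without pool 3. msmo1, a sterol methyl oxidase, had 29.0 and 44.0 CPM in pools 1 and 2, against 90.3, 63.6 and 56.8 CPM in pools 3 to 5 (log2 difference -0.94, SD 0.37). cyp51, lanosterol demethylase, had 36.4 and 55.6 CPM in pools 1 and 2, against 110.0, 66.6 and 64.5 CPM in pools 3 to 5 (log2 difference -0.78, SD 0.43). hmgcra, the rate-limiting reductase, had 39.5 and 63.2 CPM in pools 1 and 2, against 98.9, 69.98 and 69.98 CPM in pools 3 to 5 (log2 difference -0.65, SD 0.36). In each of these 3 pool 1 was the lowest of all and pool 3 the highest, and the gap between pools 3 and 4 was wider than that between the nearest pools of the 2 sets. sqlea, squalene epoxidase, had pool 2 at 19.5 CPM and pool 4 at 20.5 CPM, so that the sets nearly met. srebf2, the transcription factor of the pathway, and insig1, its retention protein, overlapped, and ldlra, the LDL receptor gene, was wholly higher by 0.32. The 4 enzyme genes were chosen after their values were seen.

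Fatty acid synthesis genes showed no common side, while most fatty acid oxidation genes were wholly lower. Fatty acid synthesis genes had a median of -0.02, with fasn, fatty acid synthase, at 86.8 and 85.1 CPM in pools 1 and 2, against 92.7, 84.2 and 85.0 CPM in pools 3 to 5. srebf1, the factor that activates lipogenesis, had 31.5 and 31.1 CPM in pools 1 and 2, against 22.4, 19.1 and 16.8 CPM in pools 3 to 5 (log2 difference 0.69, SD 0.17). Fatty acid oxidation genes had a median of -0.16, with 18 of 32 (56.25%) wholly lower and 3 wholly higher. Cytochrome P450 genes had a median of -0.15, and amino acid breakdown genes -0.19, with 30 of 47 wholly lower. Among all genes 34.1% were wholly lower and 23.7% wholly higher. Heme and iron genes had a median of -0.18. Purine and one-carbon genes were wholly lower in 24 of 36 cases and never wholly higher, with a median of -0.30, and paics, an enzyme of purine synthesis, had 74.0 and 81.0 CPM in pools 1 and 2, against 129.9, 92.1 and 115 CPM in pools 3 to 5.

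Ribosome, proteasome and DNA replication genes were lower, and mitosis genes were not. Their counts stand beside 34.1% of all genes wholly lower and 23.7% wholly higher. Of 82 cytosolic ribosomal protein genes 81 (98.8%) were wholly lower, none was wholly higher, and the 25th and 75th percentiles of the members were -0.51 and -0.45. rpl7a had 1591 and 1707 CPM in pools 1 and 2, against 2391, 2110.0 and 2140.1 CPM in pools 3 to 5 (log2 difference -0.42, SD 0.09). Ribosome assembly genes were wholly lower in 35 of 45 cases, with a median of -0.25. Proteasome subunit genes were wholly lower in 36 of 41 cases, with a median of -0.37. psmb2, of the catalytic core, had 42.7 and 42.4 CPM in pools 1 and 2, against 70.9, 56.4 and 59.0 CPM in pools 3 to 5 (log2 difference -0.53, SD 0.14). DNA replication genes were wholly lower in 30 of 49 cases, with a median of -0.29, as in mcm5, a subunit of the replicative helicase, with 59.07 and 62.5 CPM in pools 1 and 2, against 89.7, 74.2 and 82.6 CPM in pools 3 to 5. Mitosis genes had a median of -0.06, that of all genes, with cenpf, a large kinetochore protein, wholly higher by 0.54 and ube2c, a small ubiquitin enzyme, wholly lower.

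**Figure D4:**
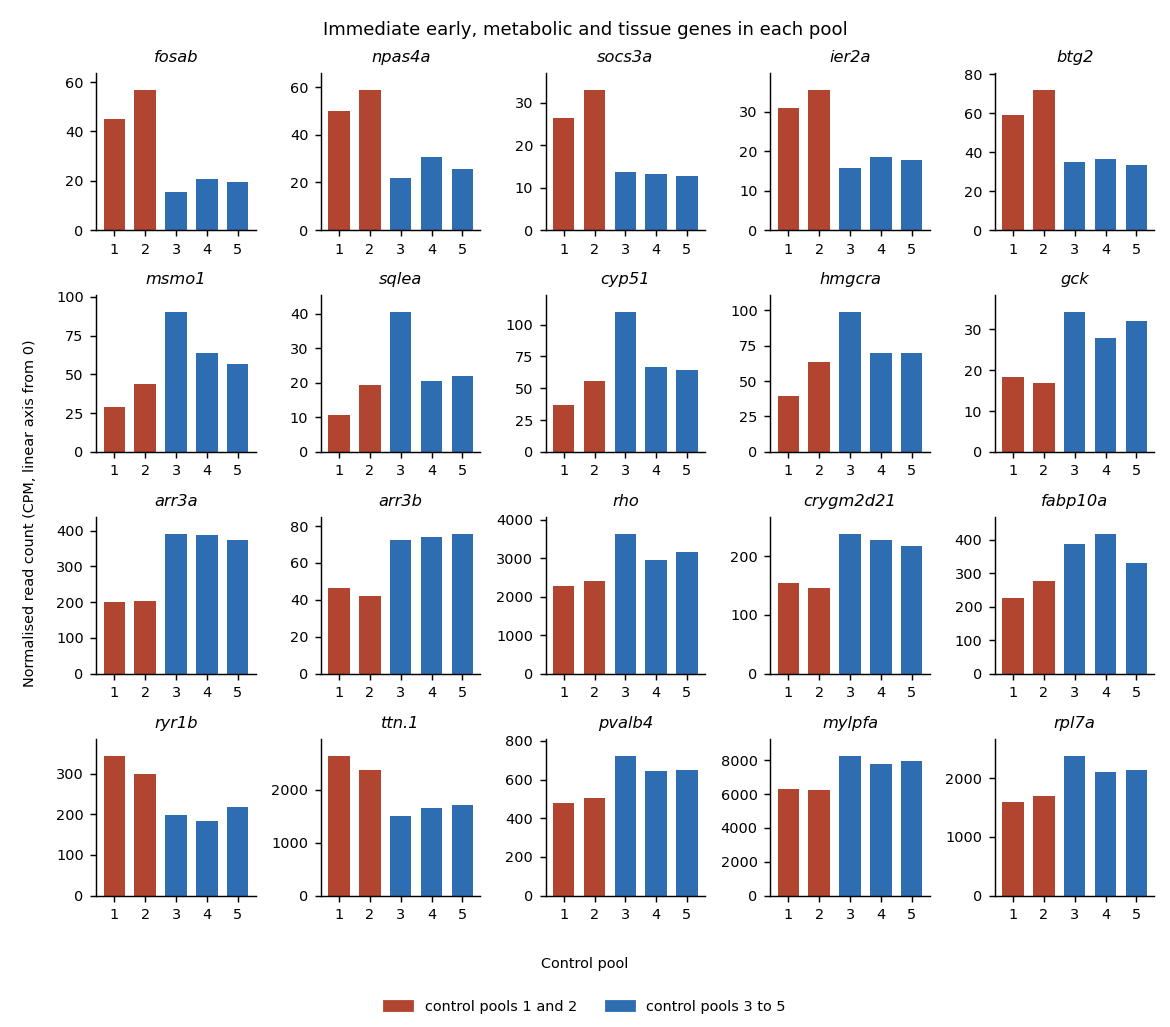
Bars give the CPM of 20 immediate early, metabolic, tissue and ribosomal genes in each control pool (linear axes from 0), with pools 1 and 2 in red and pools 3 to 5 in blue. Immediate early genes, ryr1b and ttn.1 stand higher in pools 1 and 2, the others lower, and the sterol genes msmo1, sqlea, cyp51 and hmgcra peak in pool 3.

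Within muscle, liver, gut, cartilage and mitosis most members named above as higher in pools 1 and 2 encode large proteins, and most of those named as lower encode small ones. Most of these members were chosen after their values were seen, and no protein or transcript lengths were used. A list of genes for very large proteins (titins, dyneins, ryanodine receptors, voltage-gated channels and the like) was written by gene name after this size pattern had been seen, to describe it. Of its 178 members at this level, 176 had a positive difference, beside 42.6% of all genes. Of the 178, 159 (89.3%) were wholly higher and none wholly lower, beside 23.7% and 34.1% of all genes. The 2-fold rule was passed upwards by 12, beside 0.841% of all genes, and the median was 0.46. Genes already seen to be higher are among the members, so these counts describe the list and support nothing by themselves. cacna1ab, a calcium channel subunit, had 42.8 and 44.2 CPM in pools 1 and 2, against 21.0, 18.2 and 15.1 CPM in pools 3 to 5 (log2 difference 1.25, SD 0.19). dock5, a guanine nucleotide exchange factor, had 11.6 and 13.3 CPM in pools 1 and 2, against 5.02, 5.34 and 5.32 CPM in pools 3 to 5 (log2 difference 1.17, SD 0.09). scn12aa and cacna1fb were the 2 with a negative difference, of -0.15 and -0.05. The list was even within each set: the mean of its members' log2 values, relative to the mean of the 5 pools, was 0.32 and 0.28 in pools 1 and 2, against -0.18, -0.21 and -0.20 in pools 3 to 5.

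Library depth, the mitochondrial share and the large-protein list thus moved with the sets beside the clock, tissue, metabolic, growth and stress lists. Their part in any of those results was not tested. With every library thinned to the smallest control total, 193 genes were higher and 17 lower, of which 149 and 13 were among the 170 and 16. Of the clock genes past 2-fold, 3 of the 4 higher and 7 of the 8 lower kept the rule after thinning, with cry3b and dbpa lost.

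**Figure D5:**
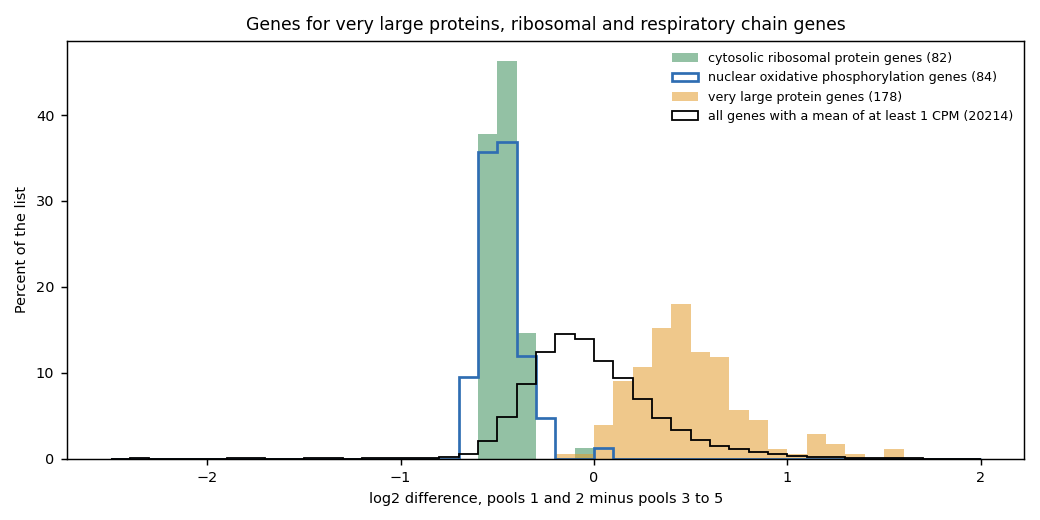
Histograms give the percent of each list by log2 difference, pools 1 and 2 minus pools 3 to 5, in bins of 0.1, for ribosomal protein genes, nuclear oxidative phosphorylation genes, genes for very large proteins and all genes (black line). The ribosomal and respiratory genes centre on -0.49 and -0.48 and the very large protein genes on 0.46, on either side of all genes.

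The pools within a set were not equal either. Lists with the widest spread inside the sets were cholesterol synthesis (SD 0.23 on the log2 scale of list means) and exocrine pancreas (SD 0.22). The clock lists ran from 0.02 for E-box repressors to 0.10 for clock activators, with 0.04 for period and cryptochrome genes. The mean of the cholesterol list relative to the 5 pools was -0.34 and -0.11 in pools 1 and 2, against 0.44, -0.02 and 0.03 in pools 3 to 5. Melanophore genes were low in pool 1 alone, with -0.27 and 0.02 in pools 1 and 2, against 0.08, 0.07 and 0.10 in pools 3 to 5. Immediate early genes were even, with 0.20 and 0.27 in pools 1 and 2, against -0.20, -0.09 and -0.17 in pools 3 to 5.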

How the data were processed

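Counts were analysed for the 5 control and 5 qKO larval pools, 2 of the 8 groups in the labels; the other 30 samples were not analysed here. The authors deposited unnormalised whole-number counts of reads, each row an Ensembl gene and its name. Per the submitters' processing notes the tools were FastQC 0.11.9, Trim Galore 0.6.6, featureCounts, Subread 2.0.0 and MultiQC 1.9 with GRCz11; an aligner and the strand setting are not given in the sources used here, so reads of overlapping genes cannot be told apart. Per the labels' protocols, libraries were made from 200 ng of RNA with the TruSeq Stranded Total RNA kit, and the design text says that RNA integrity was checked.

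Counts were scaled by TMM over the 10 larval libraries (edgeR 4.0.16 in R 4.3.3) and given as CPM. Differences are means of log2(CPM + 0.5), pools 1 and 2 minus pools 3 to 5, over genes averaging at least 1 CPM in controls; they understate changes of low genes. A gene was counted at 2-fold without overlap. List scores are means of members' log2 values minus the mean over the 5 pools. The members and lists were chosen with earlier results of these data known, and the very large protein list after this contrast was seen. No test was run on the contrast. Named genes were those of the clock lists with the largest differences, up to 3 members per other list past the 2-fold rule, and the 10 largest differences in each direction at a mean of at least 5 CPM; others named were chosen after their values were seen. Outliers used Dixon's ratio. Alternatives were scaling (DESeq2 1.42.0 among them), filters, pseudocounts, thinning, other fold limits and each control pool left out. The procedure was tested on simulated data. Python 3.11.15, numpy 2.4.6, pandas 2.3.3 and matplotlib 3.10.9 were used.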

Additional observations from a re-analysis of the deposited data

Results flagged for a closer look

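Of 171 gene levels and list scores screened over the 5 control pools, 8 had 1 pool far from the other 4. Unselected values would give about 1 in 20 by chance, but that rate does not hold here. Lists share values with their members, and some genes were chosen for differing between the sets. A gene whose sets lie far apart can hardly have 1 pool far from the other 4. The number was therefore not judged against chance. Pool 1 stood apart for tyrp1b, a melanin synthesis gene, at 25.6 CPM beside 36.3 to 40.5 CPM in the others. The melanophore list, which holds tyrp1b, was also lowest in pool 1, at -0.27 on the log2 scale beside 0.016 to 0.10. The endothelial list was 0.026 in pool 1 beside -0.0094 to -0.0015. Pool 2 stood apart for rorb, a ROR receptor gene, at 16.4 CPM beside 11.6 to 12.9 CPM, for sox2, a neural progenitor factor, at 67.1 CPM beside 75.7 to 77.96 CPM, and for tph1b at 3.07 CPM beside 3.43 to 3.57 CPM. Pool 3 stood apart for the fatty acid synthesis list, at 0.044 beside -0.015 to -0.0067, and for lonrf1 at 63.5 CPM beside 69.9 to 71.8 CPM.

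All 12 clock genes past 2-fold between the control sets moved the opposite way between the same-numbered knockout pools, with no overlap in either genotype. The difference between genotypes was not tested, and the clock helped to choose the sets. Control and knockout pools of the same number are not paired in the labels. As log2 differences, pools 1 and 2 minus pools 3 to 5, the genes lower in control pools 1 and 2 had 7.12 in qKO against -2.35 in controls for nr1d1, 5.77 in qKO against -1.84 in controls for per1a, 4.87 in qKO against -1.49 in controls for dbpb, 3.21 in qKO against -1.38 in controls for ciarta, 2.04 in qKO against -1.09 in controls for tefa, 1.92 in qKO against -1.01 in controls for dbpa, 1.88 in qKO against -1.08 in controls for cry5 and 1.41 in qKO against -1.004 in controls for cry-dash. The genes higher in control pools 1 and 2 had -1.26 in qKO against 1.01 in controls for cry3b, -1.03 in qKO against 1.47 in controls for rorcb, -0.77 in qKO against 1.00 in controls for clocka and -0.60 in qKO against 1.22 in controls for nfil3-5.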

How the results depend on the processing

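Counts of genes past the 2-fold rule were 170 higher and 16 lower in pools 1 and 2. Other scalings gave 189 to 199 higher and 12 lower (TMM over the controls alone, DESeq2 size factors, upper quartile), and library totals alone gave 316 and 7, with the median of all genes moved by 0.14. No filter gave 178 and 18, a mean of at least 5 CPM gave 94 and 14, filterByExpr 175 and 16, and a mean of the 2 set means 172 and 16. A pseudocount of 0.1 CPM gave 271 and 21, and 1 CPM gave 110 and 11. Limits of 1.5-fold and 3-fold gave 996 and 209, and 5 and 3. Leaving out each control pool in turn gave 147 to 256 higher and 16 to 39 lower, the widest being 256 higher without pool 1 and 39 lower without pool 2. No gene named by rule changed sign under any of these, but of the 8 clock genes lower by 2-fold 6 kept the rule under the first 3 scalings, 4 under library totals and 7 after thinning. Genes named by rule had log2 differences of at least 1 in size, so a change of sign was unlikely from the start. Over them and the clock genes past 2-fold, 31 values moved by more than the spread within the sets while 465 did not. Filters only decide which genes are kept, so values under them could not move and are among the 465. List medians are given here minus the median of all genes, and the cause of each shift was not tested. Without a filter they moved to -0.19 for E-box repressors and clock modifiers, -0.16 for amino acid breakdown genes, -0.0194 for endothelial genes, 0.00721 for fatty acid synthesis and storage genes, 0.0954 for gluconeogenesis and fasting genes, -0.22 for myelin and glial genes, -0.0945 for pituitary hormone genes and 0.49 for very large protein genes. At a mean of 5 CPM they moved to -0.0458 for cardiac muscle genes, -0.12 for endocrine pancreas genes, 0.0268 for endothelial genes, 0.15 for gluconeogenesis and fasting genes, 0.00248 for light-induced DNA repair genes, -0.11 for melatonin and pineal genes, -0.18 for myelin and glial genes and -0.0929 for neural progenitor genes. After thinning they moved to -0.14 for E-box repressors and clock modifiers, 0.14 for cardiac muscle genes, -0.0102 for endothelial genes, -0.0252 for fatty acid synthesis and storage genes, 0.0999 for gluconeogenesis and fasting genes and -0.30 for glycolysis genes. With each pool left out in turn they ran from -0.20 to -0.097 for E-box repressors and clock modifiers, from -0.091 to 0.12 for PAR bZIP and nfil3 factors, from 0.14 to 0.29 for REV-ERB and ROR receptors, from -0.16 to -0.11 for amino acid breakdown genes, from -0.23 to -0.0968 for bone genes, from -0.0321 to 0.13 for cardiac muscle genes, from 0.0727 to 0.27 for cartilage genes, from -0.12 to -0.0437 for cytochrome P450 genes, from -0.21 to -0.13 for endocrine pancreas genes, from -0.00788 to 0.053 for endothelial genes, from 0.0826 to 0.20 for erythrocyte genes, from -0.18 to -0.0921 for fatty acid oxidation genes, from -0.0381 to 0.056 for fatty acid synthesis and storage genes, from 0.0561 to 0.13 for gluconeogenesis and fasting genes, from -0.32 to -0.25 for glycolysis genes, from 0.28 to 0.41 for immediate early genes, from -0.0435 to 0.17 for interferon and antiviral genes, from -0.25 to 0.00999 for iridophore and xanthophore genes, from -0.15 to -0.0532 for larval skin keratin genes, from -0.13 to -0.012 for light-induced DNA repair genes, from -0.34 to -0.14 for liver plasma protein genes, from -0.29 to -0.0324 for melanophore genes, from -0.25 to -0.12 for melatonin and pineal genes, from -0.24 to -0.15 for myelin and glial genes, from -0.18 to -0.0402 for neural progenitor genes, from -0.20 to -0.0904 for neutrophil and macrophage genes, from -0.28 to -0.19 for oxidative stress and nrf2 genes, from -0.36 to -0.31 for period and cryptochrome genes, from -0.40 to -0.24 for photoreceptor genes, from -0.42 to -0.26 for pituitary hormone genes, from -0.25 to -0.17 for ribosome assembly genes, from -0.11 to -0.0704 for skeletal muscle fibre genes, from -0.0973 to -0.0412 for smooth muscle genes and from 0.47 to 0.55 for very large protein genes. Leaving out each pool in turn, cholesterol synthesis genes ran from -0.52 to -0.22 and exocrine pancreas enzymes from -0.27 to 0.086. Without subtracting the median of all genes, medians turned positive under library totals for light-induced DNA repair genes, exocrine pancreas enzymes, enterocyte genes, endothelial genes, smooth muscle genes, ionocyte genes, fatty acid synthesis and storage genes and mitosis genes. Relative to all genes, none of the 51 lists or of the very large protein genes changed sign over the scalings. A scaling shifts all genes of a library by nearly the same log2 amount, so this result was all but fixed beforehand. No paired analysis was possible because the 2 sets of control pools share no replicate number. Depth limits low genes most in pool 1, where 3 counts stood for 0.187 CPM before the TMM scaling. With 2 pools in the first set, its spread rests on 1 difference. The order of pools by collection, clutch or sequencing run is not given in the sources used here, so none of these could be set against the sets.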

Other observations

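The 2 entries named rrm2, a subunit of ribonucleotide reductase, which makes DNA precursors, varied between control pools without regard to the sets. The entry ENSDARG00000020711 had 34.8 and 8.28 CPM in pools 1 and 2, against 29.3, 4.11 and 26.1 CPM in pools 3 to 5, so pools 2 and 4 were low and the others high. The entry ENSDARG00000078069 had 34.3 and 69.3 CPM in pools 1 and 2, against 62.2, 69.2 and 56.7 CPM in pools 3 to 5. These genes were chosen after their values were seen, and how reads were divided between the 2 entries is not known. The SD within the sets was 1.48 for the first entry and 0.43 for the second, beside a median of 0.11 over all genes.

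Several cytochrome P450 genes of the cyp2aa cluster also varied inside the sets. cyp2aa8 had 14.3 and 21.5 CPM in pools 1 and 2, against 31.3, 21.3 and 42.3 CPM in pools 3 to 5, with pool 4 level with pool 2. cyp2aa9 had 1.70 and 1.69 CPM in pools 1 and 2, against 4.52, 2.02 and 3.37 CPM in pools 3 to 5. Genes of this cluster are close copies, so their division of reads is uncertain.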
